A study of Mus musculus with 15 samples.

Results

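The unfolded protein response and the integrated stress response were followed through 33 genes in 15 arrays of mouse bone marrow-derived macrophages. The 33 genes were taken as a named set and found on the arrays through the RefSeq accession of each probe. All 33 had a probe well above background, on all 15 arrays, among 14198 named genes that passed the filter on dim probes. Each gene is described by its level, which is log2 of the probe signal divided by the 75th percentile of its array. The macrophages were grown for a week in macrophage colony-stimulating factor and then kept without stimulus or exposed for 4 h to 100 ng/ml lipopolysaccharide (LPS), the endotoxin of Gram-negative bacteria. Wild type cells came from C57BL/6 mice (4 untreated and 4 LPS arrays). Knockout cells were Junb-fl/fl Lyz2-Cre+/+ on the same background (4 untreated and 3 LPS arrays, the latter numbered 2, 3 and 4). Cre is driven by the Lyz2 locus, a myeloid-cell gene, and sits in both of its copies, so the knockout cells lack Junb and intact Lyz2 together, and the wild type label names neither a floxed allele nor Cre. Replicates were separate wells, so the tests measure the spread between wells and not between mice.

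Both responses protect cells from faulty or starved protein synthesis. Unfolded protein in the endoplasmic reticulum (ER) is sensed by PERK (Eif2ak3), IRE1 (Ern1) and ATF6 (Atf6), and amino acid shortage is sensed by GCN2 (Eif2ak4). PERK and GCN2 phosphorylate the initiation factor eIF2-alpha, which slows translation in general but favours translation of Atf4, a transcription factor of amino acid uptake and synthesis genes, whereas ATF6 and XBP1, the latter spliced by IRE1, drive ER chaperones and ER-associated degradation. Much of this control acts on translation, splicing and phosphorylation, which an array of RNA levels does not measure. In bulk RNA, fewer cells that express a gene and less RNA per cell cannot be told apart.

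Junb was clearly above background on each wild type array and on none of the 7 knockout arrays, and against the floor of the level scale (-4.52) was at least 38.0-fold lower in untreated and at least 220.4-fold lower in LPS-treated knockout cells. Of 12 macrophage markers, 11 passed the filter and were above background on all 15 arrays, Cd68 being the exception. Lyz2 levels were between 8.67 and 9.49 in wild type cells and between 0.36 and 2.40 in the knockout. Each genotype occupied a slide of its own. Xist was above background on 8 of 8 wild type and 0 of 7 knockout arrays, and the Y-linked genes Ddx3y and Eif2s3y on 0 and 7. The Y-linked Kdm5d was above background on 5 wild type and 7 knockout arrays, with wild type signals up to 1184 against 30.7 to 87.8 in knockout cells, and Uty on 6 and 7 (14.6 to 123 against 207.7 to 1347). Junb loss, Cre in Lyz2, slide and sex cannot be told apart in any comparison of the genotypes, and in the difference of the LPS responses only a constant slide effect cancels. Untreated knockout replicate 3, untreated wild type replicate 1 and LPS-treated wild type replicate 4 deviated most from their groups over all genes (SD 0.64, 0.54 and 0.53, against 0.23 to 0.43 on the others).

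The promoters were searched for the letters of known stress elements. Promoter sequences from RefSeq (mouse build GRCm38.p6), 250 bases before to 50 bases after the start site, were found for 30 of the 33 genes; Ppp1r15b, Atf6 and Manf were not in that table. The ER stress element ERSE (CCAAT, 9 bases of any kind, then CCACG, searched on both strands like the others), known as a target of ATF6 and XBP1, was found in 6 of the 30, against 0.137% of 27025 promoters. The 6 were Hspa5, Hsp90b1, Dnajc3, Pdia6, Creld2 and Syvn1. The shorter ERSE-II (ATTGG, 1 base of any kind, then CCACG) was found in Herpud1, against 0.0444% of all promoters. The letters TGATGNAA, the core of C/EBP-ATF composite elements through which ATF4 acts, were found in Nupr1, Asns, Trib3, Chac1, Vldlr and Herpud1, against 4.51% of all promoters. TGACGTGG, the binding letters of XBP1 outside ERSE, were in none of the 30 (0.714% of all promoters). The letters TGACGTCA of the cyclic AMP response element were found in Ppp1r15a (2.03% of all promoters). Of the 5 amino acid and serine enzymes, Asns alone held TGATGNAA in this window and none held an ERSE, and 17 of the 30 promoters held none of the searched letters. A match is a description of the letters and not of binding. The members were chosen as genes of these pathways, so shares above those of all promoters are a description and not a test. The sequences below give 60 bases around the match, 5′ to 3′ on the gene's own strand, with the fixed letters of the element in capitals; they are shown so that the members with chaperone-type and ATF4-type letters can be set against their LPS responses.
Hspa5, chr2:34772004-34772063 on the plus strand, ERSE: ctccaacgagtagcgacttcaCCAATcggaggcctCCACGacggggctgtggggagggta
Hsp90b1, chr10:86705618-86705677 on the minus strand, ERSE, the first of a pair: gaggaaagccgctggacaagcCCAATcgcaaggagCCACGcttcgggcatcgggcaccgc
Dnajc3, chr14:118937806-118937865 on the plus strand, ERSE: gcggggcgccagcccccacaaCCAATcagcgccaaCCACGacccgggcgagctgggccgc
Pdia6, chr12:17266470-17266529 on the plus strand, ERSE: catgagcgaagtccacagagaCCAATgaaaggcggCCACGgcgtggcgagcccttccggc
Creld2, chr15:88819499-88819558 on the plus strand, ERSE on the opposite strand: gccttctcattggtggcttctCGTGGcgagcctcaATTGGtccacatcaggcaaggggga
Syvn1, chr19:6046511-6046570 on the plus strand, ERSE: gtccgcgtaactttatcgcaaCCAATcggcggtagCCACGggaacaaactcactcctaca
Herpud1, chr8:94386352-94386411 on the plus strand, ERSE-II: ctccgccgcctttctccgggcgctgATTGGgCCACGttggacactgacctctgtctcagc
Herpud1, chr8:94386291-94386350 on the plus strand, TGATGNAA on the opposite strand: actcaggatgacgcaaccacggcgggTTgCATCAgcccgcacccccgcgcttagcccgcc
Asns, chr6:7693210-7693269 on the minus strand, TGATGNAA: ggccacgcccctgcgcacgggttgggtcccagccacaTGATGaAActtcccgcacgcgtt
Chac1, chr2:119351023-119351082 on the plus strand, TGATGNAA on the opposite strand: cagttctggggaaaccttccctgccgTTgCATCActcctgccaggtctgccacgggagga
Nupr1, chr7:126625547-126625606 on the minus strand, TGATGNAA on the opposite strand: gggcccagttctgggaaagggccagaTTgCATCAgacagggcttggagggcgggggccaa
Vldlr, chr19:27216794-27216853 on the plus strand, TGATGNAA on the opposite strand: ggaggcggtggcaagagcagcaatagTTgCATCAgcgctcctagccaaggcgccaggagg
The 6 genes with TGATGNAA had a median LPS difference of 2.13 in wild type and 2.46 in knockout cells, with 5 of 6 higher in each genotype, against 34.9% and 32.5% of all genes. Of all 33 members, 66.7% and 57.6% were higher. Among the enzymes without these letters, wild type rises ran from 0.49 (Shmt2) to 4.00 (Psat1). A link between the letters and the responses was not tested. The 7 genes with ERSE or ERSE-II had medians of 0.22 and 0.15, with 3 higher and 0 lower in wild type and 3 higher and 2 lower in knockout cells, where 25.5% and 27.5% of all genes were lower, so that 3 of 7 is near the share of all genes that rose. Herpud1, which encodes an ER membrane protein of the degradation pathway, was the only member with both kinds of element, and Syvn1 and Herpud1 lay above the 4 chaperones with ERSE other than Hspa5 in both genotypes.

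With LPS all 5 amino acid and serine enzymes rose in each genotype, whereas of the 9 ER chaperones and folding factors 2 rose and 2 fell in wild type and 1 rose and 5 fell in knockout cells. In wild type cells 22 of 33 rose and 4 fell, leaving 7 that missed the threshold (limma, Benjamini-Hochberg adjusted p under 0.05 over all genes). LPS changed 60.5% of all genes tested in these cells, 34.9% upwards and 25.5% downwards, so the total of 26 of 33 is to be read against that share. In knockout cells 19 rose, 8 fell and 6 did not pass, against 59.9% of all genes, 32.5% upwards and 27.5% downwards. The median difference over the 33 genes was 0.74 in wild type and 0.53 in knockout cells on the log2 scale, against 0.14 and 0.19 over all genes. Across the 2 genotypes, whose LPS responses share no array, 19 genes rose in both (57.6%, against 26.4% of all genes), 4 fell in both (12.1%, against 21.5%) and 0 moved in opposite directions (against 0.606%). The responses correlated with r = 0.97 across the 33 genes and 0.89 across all genes, as a description only, since genes are not independent replicates. The 4 genes that fell in both genotypes were the sensor kinases Eif2ak3 and Eif2ak4 and the chaperone partners Sdf2l1 and Dnajb9. With quantile normalisation, which moved the share of higher calls over all genes from 57.7% to 43% in wild type and from 54.2% to 37.5% in knockout cells, 16 of the 33 genes rose and 9 fell in wild type and 14 rose and 11 fell in knockout cells. The calls of 16 of the 26 genes in wild type and 16 of the 27 in knockout cells held in every alternative processing that could be fitted.

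**Figure D1:**
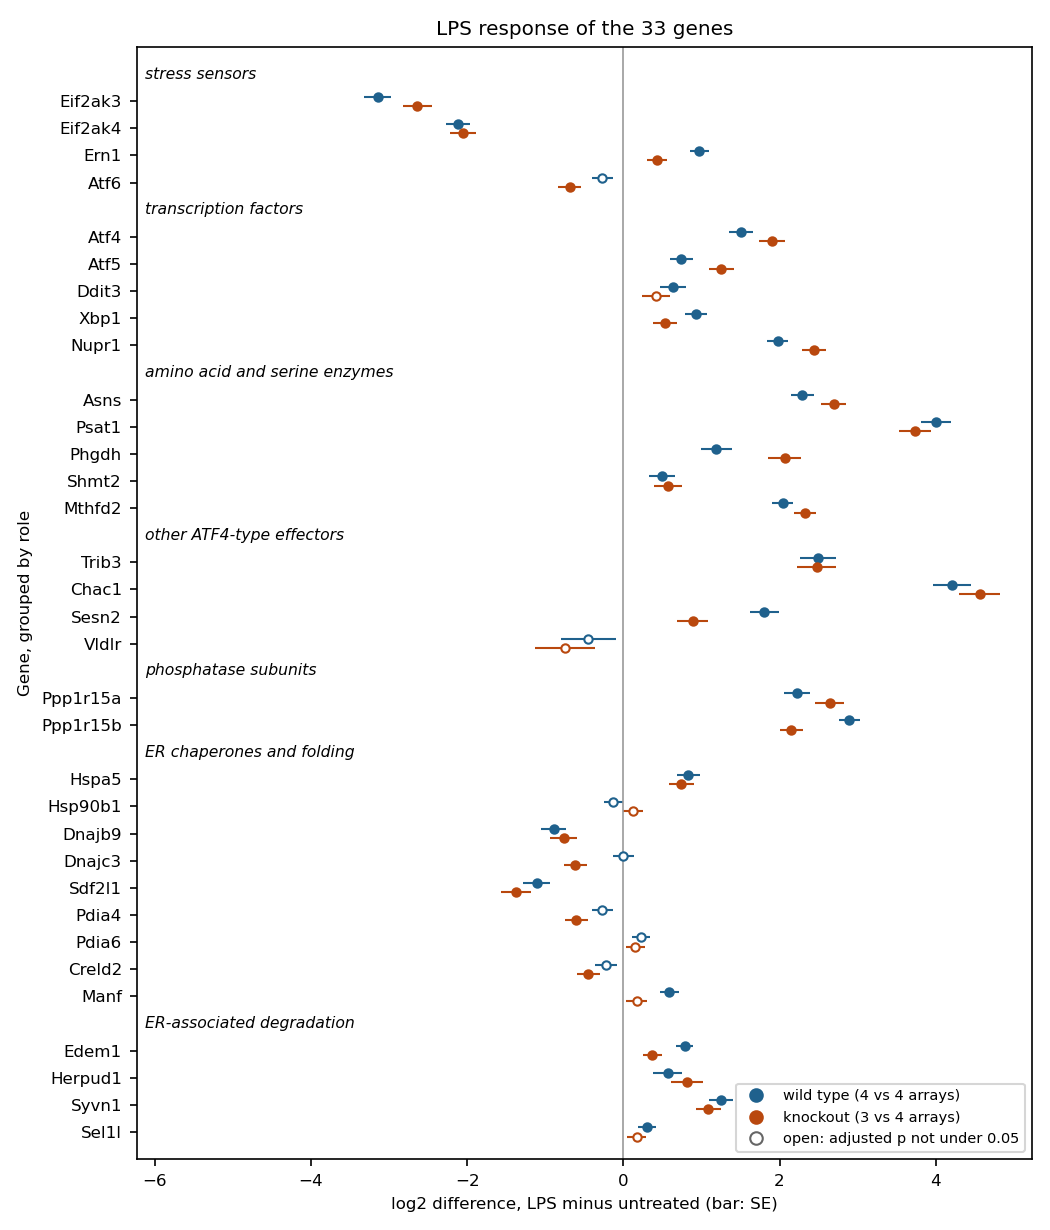
LPS response of each of the 33 genes, grouped by role: log2 difference, LPS minus untreated, with its SE, in wild type (blue) and knockout (orange); open points did not pass adjusted p 0.05. The 5 enzymes lie between 0.49 and 4.00 in wild type cells, and the 9 chaperones and folding factors between -1.11 and 0.83.

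Amino acid and serine enzymes rose in 5 of 5 cases in each genotype, against 34.9% and 32.5% of all genes. Their median was 2.04 in wild type and 2.33 in knockout cells. Psat1, which makes phosphoserine for serine synthesis, had untreated wild type levels of 0.44, 1.00, 0.93 and 0.64 and LPS levels of 5.0, 4.70, 4.92 and 4.41. In knockout cells Psat1 was at 1.52, 1.45, 1.69 and 0.93 untreated and 5.26, 5.27 and 4.86 with LPS. No LPS array overlapped an untreated one, and the rise was 4.00 (SE 0.19, adjusted p = 3.58e-10) in wild type, or 16.0-fold, and 3.73 (SE 0.21, adjusted p = 2.12e-09) in knockout cells, or 13.3-fold. Asns, asparagine synthetase, stood at 3.97, 4.38, 4.47 and 4.58 in untreated and 6.73, 6.65, 6.53 and 6.65 in LPS-treated wild type cells. In knockout cells the values were 4.01, 3.85, 4.11 and 3.53 at rest and 6.55, 6.71 and 6.46 with LPS. The groups were fully apart, with a rise of 2.29 (SE 0.15, adjusted p = 8.13e-09) in wild type and 2.70 (SE 0.16, adjusted p = 4.17e-09) in knockout cells (4.89-fold and 6.48-fold). Mthfd2, a mitochondrial enzyme of one-carbon metabolism, went from 0.52, 0.97, 0.82 and 0.64 to 2.69, 3.0, 2.76 and 2.67 in wild type cells. In knockout cells it went from -0.19, 0.14, -0.16 and -0.22 to 2.11, 2.12 and 2.45. Mthfd2 rose by 2.04 (SE 0.13, adjusted p = 8.55e-09) and 2.33 (SE 0.14, adjusted p = 5.92e-09), with every LPS array above every untreated one of its genotype.

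Phgdh, the first enzyme of serine synthesis, was at 0.26, -0.51, -0.62 and 0.12 in untreated and 0.79, 1.28, 0.89 and 1.06 in LPS-treated wild type cells. The knockout values were -1.48, -0.90, -1.27 and -1.34 at rest and 0.82, 0.71 and 0.93 with LPS. The rise of Phgdh was 1.19 (SE 0.20, adjusted p = 0.000117) in wild type and 2.07 (SE 0.21, adjusted p = 1.33e-06) in knockout cells, and a second probe gave 1.45 and 2.05. Shmt2, the mitochondrial enzyme that turns serine into glycine, changed least of the 5. It was at 0.25, 0.31, 0.11 and 0.62 and, with LPS, at 0.71, 1.27, 0.64 and 0.64 in wild type cells. In knockout cells it was at -0.59, -0.28, -0.81 and -0.48 at rest and 0.10, -0.15 and 0.14 with LPS. Shmt2 rose by 0.49 (SE 0.17, adjusted p = 0.0197) and 0.57 (SE 0.18, adjusted p = 0.0141). The wild type call for Shmt2 was lost without LPS-treated wild type replicate 2, its highest array (0.34, adjusted p = 0.0648), and without untreated wild type replicate 3 (0.42, adjusted p = 0.062), the knockout call without LPS-treated replicate 4 (0.51, adjusted p = 0.0531), and both calls with scaling to the median signal.

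The other ATF4-type effectors rose in 3 of 4 cases in each genotype, against 34.9% of all genes in wild type and 32.5% in knockout cells. Chac1, a glutathione-degrading enzyme, was at 0.42, 0.89, 0.74 and 1.20 in untreated wild type cells and at 5.22, 5.11, 5.30 and 4.46 with LPS. On the knockout side, levels were 0.95, 1.16, 1.48 and 0.40 at rest and 5.69, 5.70 and 5.29 with LPS. Chac1 had the largest rise of the 33 genes in either genotype, 4.21 (SE 0.24, adjusted p = 2.95e-09) in wild type and 4.56 (SE 0.26, adjusted p = 3.58e-09) in knockout cells (18.5-fold and 23.6-fold). Trib3, a pseudokinase induced by ATF4 and CHOP, was at 0.42, 1.02, 0.93 and 1.07 at rest and 3.40, 3.47, 3.53 and 3.02 with LPS in wild type cells. Its knockout levels were 0.55, 0.68, 0.85 and 0.50 at rest and 2.38, 3.51 and 3.46 with LPS, and every LPS array stood above every untreated one. Trib3 rose by 2.50 (SE 0.23, adjusted p = 3.81e-07) and 2.48 (SE 0.25, adjusted p = 1.07e-06), the latter lost in the authors' value table (0.71, adjusted p = 0.576). Sesn2, a stress protein that restrains mTORC1 signalling, was at -0.94, -1.36, -1.16 and -1.08 at rest and 0.74, 0.84, 0.64 and 0.45 with LPS in wild type cells. Knockout arrays gave -0.49, -0.53, 0.36 and -0.42 at rest and 0.73, 0.38 and 0.75 with LPS. Sesn2 rose by 1.80 (SE 0.18, adjusted p = 1.05e-06) in wild type and by 0.89 (SE 0.20, adjusted p = 0.00152) in knockout cells, the latter not called with scaling to the median signal (0.51, adjusted p = 0.165). Vldlr, the very low density lipoprotein receptor, did not pass in either genotype (-0.45, adjusted p = 0.303, and -0.75, adjusted p = 0.11). A second Vldlr probe, above background on 4 arrays only, had -1.15 in knockout cells. In wild type cells it lay at the floor, so no p-value is given.

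All 5 transcription factors rose in wild type cells and 4 of 5 in knockout cells, against 34.9% and 32.5% of all genes. With quantile normalisation 3 of 5 rose in each genotype. Atf4 was at 5.79, 6.45, 6.35 and 6.61 in untreated and 7.85, 7.90, 7.71 and 7.76 in LPS-treated wild type cells. In knockout cells the values were 6.4, 6.03, 6.28 and 6.17 at rest and 8.04, 8.33 and 8.00 with LPS. Atf4 rose by 1.5 (SE 0.16, adjusted p = 1.3e-06) and 1.90 (SE 0.17, adjusted p = 2.9e-07), with no overlap, and by 2.05 and 2.03 with its second probe. Nupr1, a small stress-induced chromatin protein, was at 5.51, 5.71, 5.56 and 6.00 at rest and 7.69, 7.86, 7.37 and 7.78 with LPS in wild type cells. In knockout cells it was at 4.53, 4.77 and 4.56 on the 3 untreated arrays that gave a value, replicate 3 being set to missing, and at 7.0, 7.08 and 7.11 with LPS. Nupr1 rose by 1.98 (SE 0.13, adjusted p = 3.5e-08) and 2.44 (SE 0.16, adjusted p = 2.16e-08). Atf5, an ATF4-related factor, rose by 0.74 (SE 0.15, adjusted p = 0.00059) and 1.26 (SE 0.16, adjusted p = 1.14e-05), and Xbp1 by 0.93 (SE 0.15, adjusted p = 7.26e-05) and 0.53 (SE 0.16, adjusted p = 0.00956). Ddit3, which encodes the death-linked factor CHOP, rose by 0.64 (SE 0.16, adjusted p = 0.00366) in wild type cells and had 0.42 (adjusted p = 0.0531) in knockout cells. Scaling to the median signal ended the calls of Atf5 and Xbp1 in both genotypes and of Ddit3 in wild type cells. Quantile normalisation ended those of Atf5 in wild type (0.02; 0.10 in the value table) and of Xbp1 in wild type (0.29), and turned Xbp1 in knockout cells to -0.17, which did not pass.

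Both eIF2-alpha phosphatase subunits rose in both genotypes, where 34.9% (wild type) and 32.5% (knockout) of all genes rose. Ppp1r15a (GADD34), the inducible subunit, was at 2.0, 2.16, 2.31 and 2.47 in untreated and 4.50, 4.43, 4.57 and 4.34 in LPS-treated wild type cells. The knockout values were 1.91, 2.10, 1.97 and 1.87 at rest and 4.05, 4.85 and 4.91 with LPS. Ppp1r15a rose by 2.22 (SE 0.17, adjusted p = 4.73e-08) and 2.64 (SE 0.18, adjusted p = 2.08e-08). Ppp1r15b (CReP), known as the constitutive subunit, was at -0.73, -0.42, -0.29 and -0.72 at rest and 2.46, 2.37, 2.38 and 2.19 with LPS in wild type cells. On the knockout side, levels were -0.25, -0.56, -0.77 and -0.43 at rest and 1.55, 1.60 and 1.80 with LPS. Ppp1r15b rose by 2.89 (SE 0.13, adjusted p = 2.95e-10), or 7.41-fold, in wild type and by 2.15 (SE 0.15, adjusted p = 1.72e-08), or 4.45-fold, in knockout cells, and all 4 groups kept apart except the untreated ones, which overlapped.

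The transcripts of PERK and GCN2 fell in both genotypes. Eif2ak3 (PERK) was at 2.39, 2.86, 2.93 and 3.34 in untreated and -0.16, -0.37, -0.08 and -0.47 in LPS-treated wild type cells. Knockout arrays gave 3.28, 3.35, 3.29 and 2.96 at rest and 0.69, 0.57 and 0.48 with LPS. Eif2ak3 fell, with a change of -3.15 (SE 0.17, adjusted p = 1.56e-09) in wild type, 8.86-fold lower, and -2.64 (SE 0.19, adjusted p = 2.59e-08) in knockout cells, 6.24-fold lower. Eif2ak4 (GCN2) was at 2.14, 2.52, 2.54 and 2.78 and, with LPS, at 0.58, 0.25, 0.64 and 0.04 in wild type cells. In knockout cells it went from 2.62, 2.54, 2.65 and 2.35 to 0.41, 0.58 and 0.49. Eif2ak4 fell, with a change of -2.12 (SE 0.16, adjusted p = 3.35e-08) and -2.05 (SE 0.17, adjusted p = 1.26e-07), about 4.35-fold and 4.14-fold lower. Both falls held in every alternative. Ern1 (IRE1) rose by 0.97 (SE 0.12, adjusted p = 5.98e-06) in wild type and 0.44 (SE 0.13, adjusted p = 0.00893) in knockout cells, neither passing with scaling to the median signal, and the latter not with quantile normalisation (0.16, adjusted p = 0.567). Atf6 fell, with a change of -0.69 (SE 0.14, adjusted p = 0.000866) in knockout cells and had -0.27 (adjusted p = 0.0943) in wild type cells.

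Among the 9 ER chaperones and folding factors, wild type cells had 2 that rose, 2 that fell and 5 that missed the threshold (median -0.13). Knockout cells had 1, 5 and 3 (median -0.45). The wild type shares of 22.2% higher and 22.2% lower compare with 34.9% and 25.5% over the whole array. Falls were thus no more frequent among the wild type chaperones than among genes at large. In knockout cells 11.1% were higher and 55.6% lower, against 32.5% and 27.5% over the whole array. Sdf2l1, a partner of ER DnaJ proteins, was at 3.0, 2.97, 2.67 and 3.37 in untreated and 1.93, 2.24, 1.57 and 1.85 in LPS-treated wild type cells. In knockout cells the values were 3.21, 3.29, 2.82 and 3.17 at rest and 1.86, 1.5 and 1.87 with LPS. Sdf2l1 fell, with a change of -1.11 (SE 0.17, adjusted p = 7.47e-05) and -1.38 (SE 0.19, adjusted p = 2.26e-05), with the LPS arrays under the untreated ones in both genotypes. Dnajb9, an ER DnaJ cochaperone of BiP, was at 1.83, 2.17, 2.42 and 2.30 at rest and 1.33, 1.20, 1.59 and 1.05 with LPS in wild type cells. The knockout values were 2.50, 2.92, 2.61 and 2.38 at rest and 1.66, 2.0 and 1.85 with LPS. Dnajb9 fell, with a change of -0.89 (SE 0.16, adjusted p = 0.00025) and -0.77 (SE 0.17, adjusted p = 0.00166), and by -0.39 and -0.41 with its second probe. Hspa5 (BiP), the main ER chaperone, was at 6.72, 7.23, 7.08 and 7.20 at rest and 7.96, 7.82, 7.70 and 8.08 with LPS in wild type cells. On the knockout side, levels were 7.34, 6.87, 6.88 and 7.20 at rest and 7.77, 7.96 and 7.72 with LPS. Hspa5 rose by 0.83 (SE 0.15, adjusted p = 0.000184) and 0.74 (SE 0.16, adjusted p = 0.000969), with no overlap in either genotype. Manf, a secreted ER stress protein, rose by 0.59 (SE 0.12, adjusted p = 0.000929) in wild type cells and had 0.17 (adjusted p = 0.29) in knockout cells. The wild type call for Manf was not made with quantile normalisation (0.04, adjusted p = 0.711), with median scaling (0.27, adjusted p = 0.519) or in the value table (-0.08, adjusted p = 0.5).

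A further 3 folding genes fell in knockout cells, namely Dnajc3 (P58IPK, -0.61, adjusted p = 0.00239), the disulfide isomerase Pdia4 (-0.60, adjusted p = 0.00264) and Creld2 (-0.45, adjusted p = 0.0205, lost without LPS-treated replicate 3 or 4). In wild type cells they had 0.00, -0.27 and -0.22 and did not pass. Hsp90b1 (GRP94) had -0.13 in wild type and 0.12 in knockout cells, and Pdia6 0.22 and 0.15, none of which passed; the second Pdia6 probe passed in wild type cells (0.33, adjusted p = 0.0355). These small values depend on the scaling. With quantile normalisation the median over all genes moved from 0.14 to -0.11 in wild type and from 0.19 to -0.08 in knockout cells, and the chaperones then counted 1 higher and 6 lower in wild type and 0 higher and 8 lower in knockout cells. Hsp90b1 then fell in knockout cells (-0.58, adjusted p = 0.000356), Pdia6 fell in both genotypes (-0.47 and -0.52), and Manf fell in knockout cells (-0.29, adjusted p = 0.021). Relative to the median of all genes, the chaperone median was -0.27 in wild type and -0.64 in knockout cells in the main setting, and -0.36 and -0.56 with quantile normalisation. Relative enzyme medians were 1.90 and 2.14, and 1.69 and 2.23. The rise of Hspa5 in knockout cells was not called with quantile normalisation (0.18, adjusted p = 0.0895), in the value table (0.05) or with median scaling (0.36), and in wild type cells it was not called with median scaling (0.52, adjusted p = 0.163). The fall of Sdf2l1 and of Dnajb9 held in every alternative.

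The ER-associated degradation genes, which remove misfolded protein from the ER, rose in 4 of 4 cases in wild type (median 0.68) and 3 of 4 in knockout cells (median 0.59). Over all genes 34.9% and 32.5% rose, with medians of 0.14 and 0.19. With quantile normalisation the median of the 4 was 0.12 in each genotype, against -0.11 and -0.08 over all genes. Syvn1 (HRD1), the ubiquitin ligase of the pathway, was at 3.43, 3.65, 3.75 and 4.07 in untreated and 5.18, 4.81, 5.15 and 4.77 in LPS-treated wild type cells. Knockout arrays gave 4.14, 4.17, 4.24 and 3.84 at rest and 5.36, 5.11 and 5.09 with LPS. Syvn1 rose by 1.25 (SE 0.15, adjusted p = 5.81e-06) and 1.09 (SE 0.16, adjusted p = 5.17e-05), with the groups apart in both genotypes. Herpud1 was at 3.09, 3.79, 3.73 and 3.76 at rest and 4.20, 4.24, 4.42 and 3.79 with LPS in wild type cells, whose ranges overlapped at 3.79. Its knockout levels were 3.63, 3.61, 3.42 and 3.19 at rest and 4.40, 4.44 and 3.99 with LPS, which did not overlap. Herpud1 rose by 0.57 (SE 0.19, adjusted p = 0.0162) and 0.81 (SE 0.20, adjusted p = 0.003). Edem1, a lectin-like factor of glycoprotein disposal, rose by 0.78 (SE 0.11, adjusted p = 3.51e-05) and 0.37 (SE 0.12, adjusted p = 0.0178), and Sel1l, the partner of HRD1, by 0.30 (SE 0.12, adjusted p = 0.0395) in wild type cells, with 0.17 (adjusted p = 0.267) in knockout cells. With quantile normalisation Syvn1 alone was called in wild type cells and in knockout cells, and with median scaling Syvn1 in wild type cells alone. The Sel1l call in wild type cells ended without untreated wild type replicate 1, 3 or 4, LPS-treated wild type replicate 1, 2 or 3 or LPS-treated knockout replicate 2 (adjusted p up to 0.108), that of Herpud1 without LPS-treated wild type replicate 3 (0.48, adjusted p = 0.053), and that of Edem1 in knockout cells without LPS-treated replicate 2 or 4. Edem1 in knockout cells turned to -0.13 and Sel1l in wild type cells to -0.15, and the value table gave Sel1l a fall of -0.29 (adjusted p = 0.0228).

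The contrast between the enzymes and the chaperones was present on every LPS array. Setting each gene against its own mean in untreated wild type cells, the median of the 5 enzymes minus the median of the 9 chaperones was 0.08, -0.01, 0.06 and 0.04 on the untreated wild type arrays and 2.03, 2.24, 2.25 and 2.06 on the LPS-treated ones. On knockout arrays it was -1.12, -0.81, -0.86 and -0.98 untreated and 1.5, 1.68 and 1.97 with LPS. The enzyme medians were at -0.22 to 0.23 and then 1.93 to 2.26 in wild type cells and at -0.91 to -0.59 and then 1.37 to 1.71 in knockout cells. The chaperone medians were at -0.30 to 0.19 and then -0.23 to 0.02 in wild type cells, which overlap. In knockout cells they were at -0.04 to 0.22 and then -0.30 to -0.13, fully apart. From the fitted medians the gap opened by 2.17 in wild type and by 2.78 in knockout cells, with a pooled SD of 0.139 between arrays of a group. The gap was not tested, since its genes were grouped with results of these data known. It was 1.81 and 2.62 in the authors' value table, its lowest values among the alternatives.

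**Figure D2:**
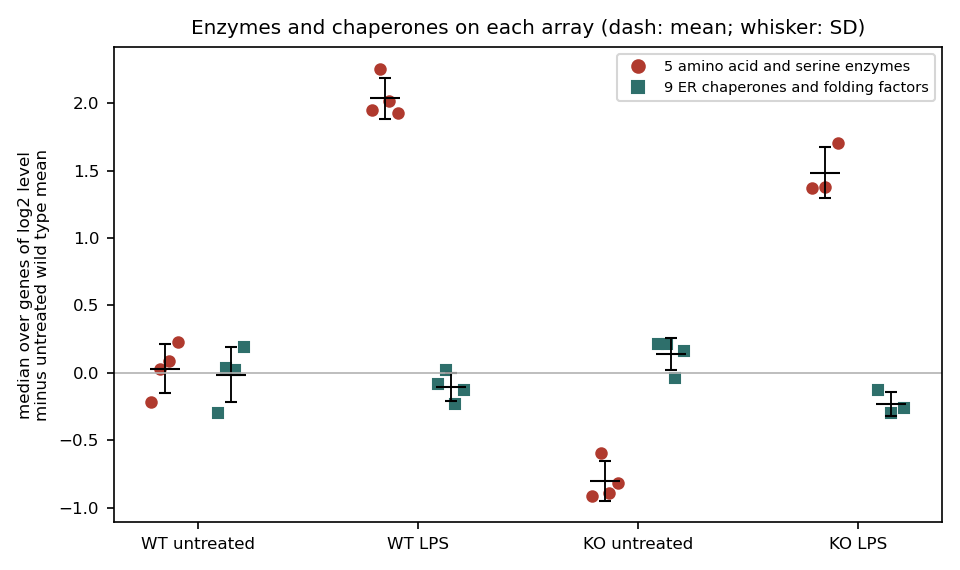
Median over the 5 amino acid and serine enzymes (circles) and over the 9 ER chaperones and folding factors (squares) of the log2 level minus the untreated wild type mean, 1 point per array; dashes are group means and whiskers SDs. Enzyme medians reach 1.37 to 2.26 with LPS, while all chaperone medians lie between -0.30 and 0.22. In knockout cells the chaperone medians are lower with LPS (-0.30 to -0.13) than untreated (-0.04 to 0.22).

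Whether the LPS response differed between the genotypes was tested as the difference of the responses. Of the 33 genes 2 passed, Sesn2 and Ppp1r15b, both with a smaller rise in knockout cells, against 10.1% of all genes (2.92% with a higher and 7.18% with a lower response in knockout cells). Ppp1r15b differed by -0.74 (SE 0.20, adjusted p = 0.0309), coming from like untreated levels and a lower level with LPS in knockout cells. Sesn2 differed by -0.92 (SE 0.27, adjusted p = 0.0482), coming from higher untreated levels in knockout cells and overlapping levels with LPS. Both sit close to the threshold. Of 26 alternatives, Sesn2 passed in 8 and Ppp1r15b in 16, and the lowest and highest adjusted p were 0.00509 and 0.366 for Sesn2 and 0.00509 and 0.63 for Ppp1r15b. Each leave-one-out fit kept the sign. The Ppp1r15b call ended without untreated knockout replicate 1, 2 or 4, LPS-treated knockout replicate 2 or 3, or LPS-treated wild type replicate 1, 2 or 3. The Sesn2 call ended without untreated knockout replicate 1 or 4, any LPS-treated knockout array, untreated wild type replicate 2, 3 or 4, or LPS-treated wild type replicate 1, 2 or 3. With the replicate number as a block neither passed (adjusted p = 0.081 for Ppp1r15b).

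The enzymes did not pass in this test. The difference was 0.88 (95% confidence interval 0.25 to 1.5, adjusted p = 0.075) for Phgdh, 0.41 (-0.06 to 0.87, adjusted p = 0.269) for Asns and 0.29 (-0.12 to 0.71, adjusted p = 0.386) for Mthfd2. For Psat1 it was -0.27 (-0.87 to 0.33, adjusted p = 0.582) and for Shmt2 0.08 (-0.45 to 0.60, adjusted p = 0.873). Among the chaperones Dnajc3 had -0.62 (-1.04 to -0.19, adjusted p = 0.0688) and Manf -0.42 (-0.81 to -0.02, adjusted p = 0.177). Ern1 had -0.54 (adjusted p = 0.0682). Weighting each array by its own scatter brought 14 of the 33 genes past the threshold, 6 with a higher and 8 with a lower response in knockout cells, against 31.7% of all genes. Leaving out the 3 arrays that deviated most brought 6, namely Ppp1r15b, Sesn2, Ern1 and Manf with a lower and Asns and Atf5 with a higher response, against 15.7% of all genes.

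**Figure D3:**
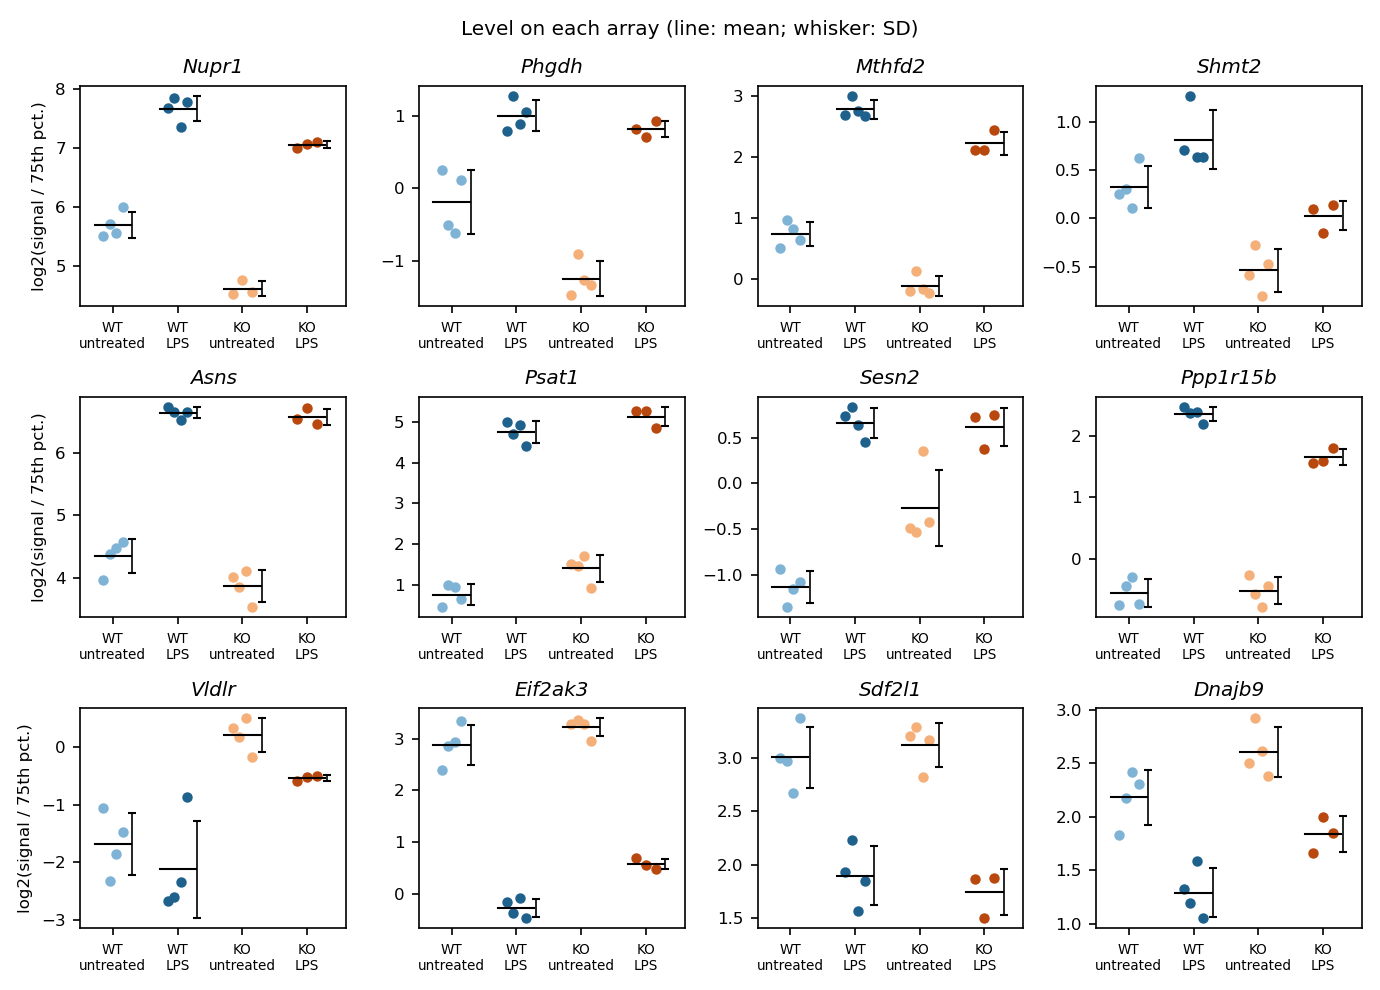
Level of 12 genes on each array, log2 of signal over the array's 75th percentile; points are arrays, lines group means and whiskers SDs (n = 4, and 3 for knockout with LPS and for untreated knockout Nupr1). Ppp1r15b separates the genotypes only with LPS (2.19 to 2.46 against 1.55 to 1.80), while Mthfd2, Nupr1, Shmt2 and Vldlr do so in both treatments. Of all genes, 21% were fully apart between the genotypes at rest and 42% with LPS.

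At rest, 4 of the 5 enzymes were lower in knockout than in wild type cells. Of the 33 genes, 4 were higher, 6 lower and 23 did not pass, against 17.7% of all genes (11.9% higher and 5.83% lower). The 6 lower ones were Nupr1 (-1.08, SE 0.15, adjusted p = 0.000235), Phgdh (-1.06, SE 0.20, adjusted p = 0.00194), Shmt2 (-0.86, SE 0.17, adjusted p = 0.00254), Mthfd2 (-0.84, SE 0.13, adjusted p = 0.00051), Asns (-0.47, SE 0.15, adjusted p = 0.0401) and the chaperone Hsp90b1 (-0.42, SE 0.12, adjusted p = 0.0294). By the array values given above, the genotypes did not overlap for Nupr1, Phgdh, Shmt2 and Mthfd2, and overlapped for Asns. Hsp90b1 overlapped too, wild type arrays having 5.95 to 6.58 and knockout arrays 5.70 to 5.97. In all, 7 of the 33 genes were fully apart at rest, 3 with knockout above and 4 with knockout below, against 21% of all genes. Psat1, the enzyme between Phgdh and the last step of serine synthesis, went the other way (0.64, SE 0.19, adjusted p = 0.0323), but its second probe gave -0.01 (adjusted p = 0.996).

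Vldlr had the largest genotype difference of the set. Its level was -1.05, -2.31, -1.85 and -1.48 in untreated wild type and 0.34, 0.18, 0.50 and -0.18 in untreated knockout cells, and -2.67, -2.61, -2.34 and -0.87 and -0.59, -0.52 and -0.50 with LPS. No knockout array overlapped a wild type array of the same treatment, and the difference was 1.88 (SE 0.36, adjusted p = 0.00225) at rest, or 3.69-fold, and 1.58 (SE 0.38, adjusted p = 0.00686) with LPS, or 3.0-fold. A second Vldlr probe was above background on 4 arrays only, with a mean level of -4.20 near the floor. Knockout against wild type, it had 1.18 at rest and 0.03 with LPS. Its LPS change was 0 in wild type cells, whose values lay at the floor. The difference of its LPS responses was -1.15, unlike that of the brighter probe. Values set to the floor have no spread, so no p-value is given for this probe. Sesn2 was higher at rest by 0.87 (SE 0.18, adjusted p = 0.00498), with the 4 knockout arrays above the 4 wild type ones, and Dnajc3 by 0.56 (SE 0.14, adjusted p = 0.0113). The Sesn2 call was not made with median scaling (0.81, adjusted p = 0.0943) or in the value table (0.80, adjusted p = 0.0522). Dnajc3 was not called with normexp background correction (0.41, adjusted p = 0.0779), in the value table (0.53, adjusted p = 0.0945), with median scaling (0.50) or without the 3 arrays that deviated most (0.45, adjusted p = 0.0657). Several other calls also depended on single arrays or on the processing. The Asns call ended when any of 11 arrays was left out (adjusted p up to 0.104), which are all but replicate 3 of both knockout groups, untreated wild type replicate 1 and LPS-treated wild type replicate 4. The Hsp90b1 call ended without untreated knockout replicate 3 or 4 or untreated wild type replicate 2, 3 or 4 (up to 0.0879), and the Psat1 call without untreated knockout replicate 1, 2 or 3 or untreated wild type replicate 1 or 4 (up to 0.0924). Hsp90b1 turned to 0.03 with normexp background correction and to 0.11 in the value table. The value table reduced Phgdh to -0.66, Mthfd2 to -0.35 and Shmt2 to -0.30, none passing, normexp background correction reduced Shmt2 to -0.38, and Nupr1 and Vldlr passed in every alternative.

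With LPS, 4 of the 33 genes were higher in knockout cells, 5 lower and 24 did not pass, against 30.7% of all genes (13.6% higher and 17.1% lower). Lower were Shmt2 (-0.79, SE 0.18, adjusted p = 0.00473), Ppp1r15b (-0.70, SE 0.15, adjusted p = 0.0026), Nupr1 (-0.61, SE 0.15, adjusted p = 0.00695), Mthfd2 (-0.55, SE 0.14, adjusted p = 0.00963) and Ern1 (-0.55, SE 0.13, adjusted p = 0.00517). Higher were Vldlr, Eif2ak3 (0.85, SE 0.19, adjusted p = 0.00368), Dnajb9 (0.55, SE 0.17, adjusted p = 0.0287) and Atf5 (0.53, SE 0.16, adjusted p = 0.0237). Shmt2, Mthfd2 and Nupr1 were thus lower in knockout cells in both treatments, while Phgdh and Asns, lower at rest, had -0.19 and -0.07 with LPS and did not pass. The LPS-treated samples of like number deviated together, and with the replicate number as a block Atf5 no longer passed (0.51, adjusted p = 0.0562). Atf5 was also lost without knockout replicate 2 or 3 or wild type replicate 4 of the LPS arrays, and Dnajb9 without knockout replicate 3 or 4 or wild type replicate 2 or 4. For Dnajb9 the mean of both probes gave 0.29 (adjusted p = 0.106), and only Vldlr passed in every alternative, since scaling to the median signal ended the other 8 calls.

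**Figure D4:**
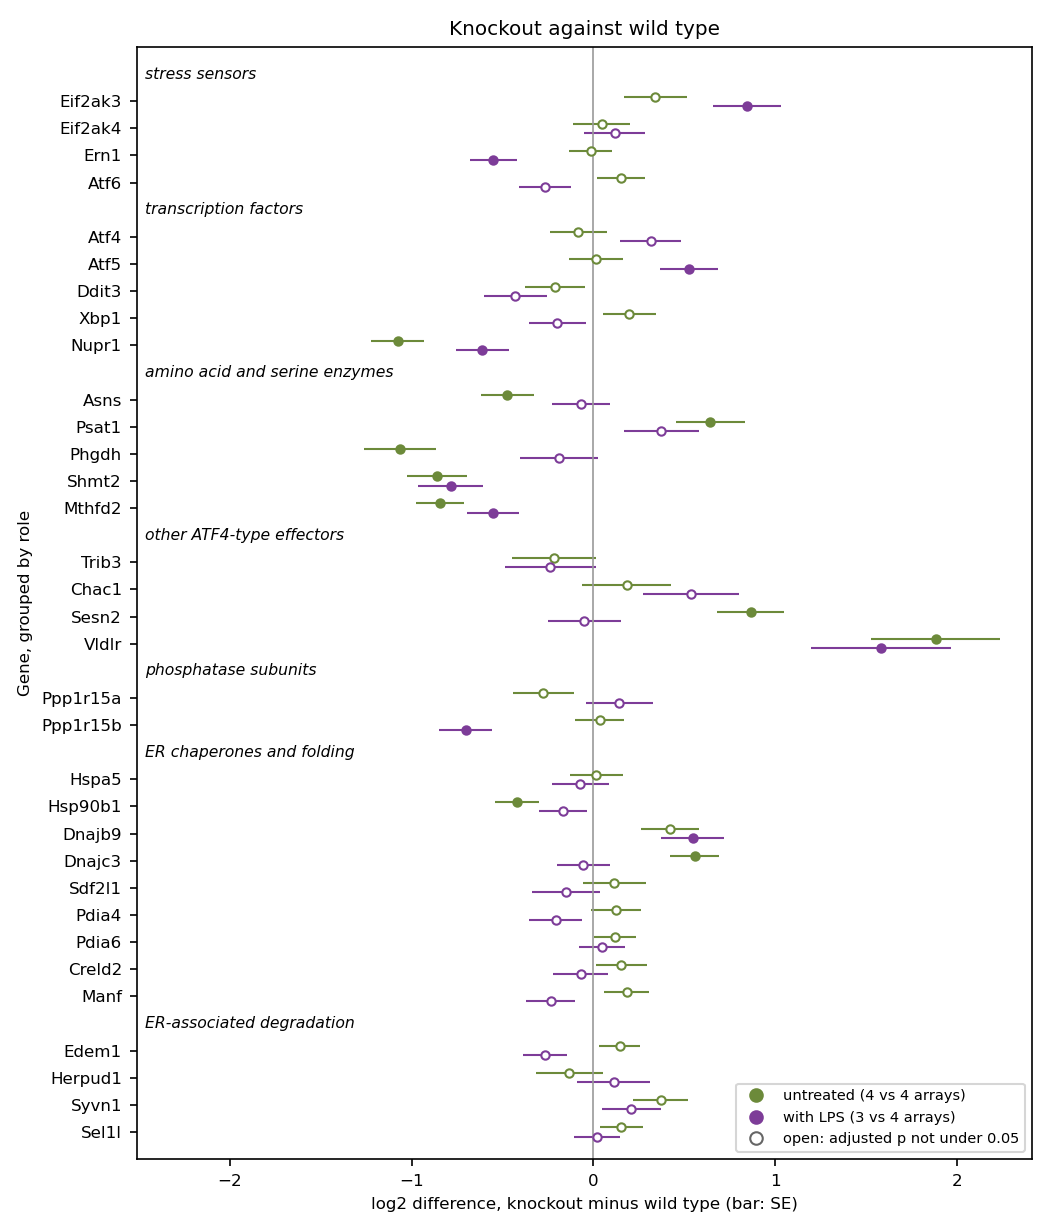
Difference between the genotypes for each of the 33 genes, knockout minus wild type on the log2 scale with SE, untreated (green) and with LPS (purple); open points did not pass adjusted p 0.05. Shmt2, Mthfd2 and Nupr1 lie below 0 and Vldlr above 0 in both treatments.

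Some markers of several cell types differed between the genotypes beside these differences. Their counts are to be read against all genes, of which 11.9% were higher and 5.83% lower in knockout cells at rest. With LPS these shares were 13.6% and 17.1%. Of 10 neutrophil markers, 5 passed the filter, and 3 of these were lower in knockout cells at rest and with LPS. Elane (-0.05 and -0.02) and Ltf (-0.09 and 0.50) did not pass between the genotypes. Camp differed by -0.98 and -0.65 and S100a8 by -0.53 and -1.76, while S100a9 was above background on 8 wild type and 0 knockout arrays. Their summed signal over the 75th percentile was 6.86 to 11.9 in untreated wild type and 5.79 to 6.62 in untreated knockout cells, and 48.3 to 64.9 and 18.3 to 20.8 with LPS. Ly6g, Mpo, Ngp, Cxcr2 and Retnlg did not pass the filter in any group. Of the B cell markers 3 passed the filter, and Ms4a1 and Pax5 did not. Blnk was higher in knockout cells by 0.66 at rest (adjusted p = 0.0203) and by 0.85 with LPS (adjusted p = 0.00466), and Cd79b by 1.10 with LPS (adjusted p = 0.000395). The summed signal of the 3 ran at rest from 45.9 to 79.3 without and from 87.1 to 124 with the knockout, and with LPS from 76.7 to 108 and from 144 to 164. Of the 11 macrophage markers, Cd33 was lower in knockout cells by -1.32 and -1.88, Cd14 by -0.45 at rest, and Fcgr1 by -0.997 and Spi1 by -0.61 with LPS, while Mertk was higher by 1.21 at rest. That is 3 of 11 in each treatment, against 17.7% of all genes at rest and 30.7% with LPS. The macrophage sums were 1230 to 1490 and 801 to 1770 at rest, and 1550 to 2220 and 1750 to 2280 with LPS. Of 4 stromal markers, Dcn was lower by -2.22 with LPS. No dendritic cell, T and NK cell or erythroid marker passed between the genotypes. The part of these markers in the genotype differences of the 33 genes was not tested.

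Other genes of the same pathways were taken from lists, whose counts are to be read against 34.9% higher and 25.5% lower over all genes in wild type and 32.5% and 27.5% in knockout cells. Of 17 measured genes of ATF4-linked amino acid uptake and synthesis, 11 rose and 1 fell in wild type cells (median 1.06) and 12 rose and 3 fell in knockout cells (median 1.07). The cystine carrier Slc7a11 rose by 5.22 (SE 0.16, adjusted p = 5.35e-12) and 5.16 (SE 0.18, adjusted p = 2e-11), the large neutral amino acid carrier Slc7a5 by 3.02 (SE 0.17, adjusted p = 1.8e-09) and 3.17 (SE 0.18, adjusted p = 3.03e-09), and Slc1a4, a carrier of small neutral amino acids with 1 value missing, by 4.61 (SE 0.73, adjusted p = 0.000107) and 3.86 (SE 0.73, adjusted p = 0.000507). A second Slc7a5 probe gave rises of 1.17 and 0.74. Slc7a11 was also lower in knockout cells at rest (-1.54) and with LPS (-1.60), as were Nupr1 and Mthfd2. The Slc7a5 probes disagreed on the genotypes, with -0.83 at rest and -0.68 with LPS for the brighter one and 1.80 and 1.36 for the other, so no direction is given. The glycine carrier Slc6a9 rose in knockout cells (1.74, SE 0.18, adjusted p = 1.43e-06) and had 0.39 in wild type cells, a difference of 1.35 (SE 0.25, adjusted p = 0.00328). Cth, which makes cysteine from cystathionine, was above background on 7 arrays, and both untreated groups lay at the floor. Its rises were thus at least 3.07 in wild type and 1.73 in knockout cells. Their difference of -1.35 is that of the levels with LPS. Values set to the floor have no spread, so its p-value is not given. Of 18 aminoacyl-tRNA synthetases, 11 rose and 1 fell in each genotype, with medians of 0.95 and 1.03, among them Wars (2.04, SE 0.22, adjusted p = 1.7e-06, and 1.5, SE 0.24, adjusted p = 8.3e-05), Aars (1.51, SE 0.16, adjusted p = 1.19e-06, and 1.51, SE 0.17, adjusted p = 2.88e-06) and Cars (1.45, SE 0.11, adjusted p = 4.66e-08, and 1.82, SE 0.12, adjusted p = 1.14e-08). A second Wars probe passed in the difference of the responses (-1.68, adjusted p = 0.0014).

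Of 14 measured regulators and effectors of the integrated stress response, 9 rose and 0 fell in wild type (against 34.9% and 25.5% of all genes) and 9 rose and 2 fell in knockout cells (against 32.5% and 27.5%). Eif2ak2 (PKR), the kinase of double-stranded RNA that shares its substrate with PERK and GCN2, rose by 3.83 (SE 0.14, adjusted p = 1.77e-11) and 3.61 (SE 0.15, adjusted p = 9.72e-11). Atf3, an ATF4 target, rose by 1.39 (SE 0.12, adjusted p = 2.72e-07) in wild type cells and had -0.01 in knockout cells, a difference of -1.41 (SE 0.18, adjusted p = 0.000311). Ddit4 (REDD1), an mTORC1 inhibitor like Sesn2, rose by 4.94 (SE 0.15, adjusted p = 4.82e-12) and 2.65 (SE 0.17, adjusted p = 7.92e-09), a difference of -2.29 (SE 0.23, adjusted p = 2.75e-05). Jdp2, an AP-1 repressor, rose by 3.44 (SE 0.15, adjusted p = 1.51e-10) and 3.20 (SE 0.16, adjusted p = 9.22e-10). Of 20 further ER folding and disulfide genes, 3 rose and 4 fell in wild type (median -0.07) and 2 rose and 7 fell in knockout cells (median -0.26). Ero1a, an oxidase that feeds disulfide formation, rose by 1.79 (SE 0.17, adjusted p = 6.21e-07) and 2.37 (SE 0.19, adjusted p = 9.05e-08), whereas Erp29, with 1 value missing, fell, with a change of -1.62 (SE 0.15, adjusted p = 8.83e-07) and -1.40 (SE 0.19, adjusted p = 2.74e-05) and Fkbp14 -1.25 (SE 0.18, adjusted p = 3.15e-05) and -1.40 (SE 0.19, adjusted p = 2.47e-05). The oxidase Ero1b responded less in knockout cells by -0.67 (SE 0.18, adjusted p = 0.0313). Of 16 other degradation genes, 5 rose and 1 fell in wild type and 5 rose and 2 fell in knockout cells, with the ubiquitin ligase Rnf139 (1.78, SE 0.14, adjusted p = 6.45e-08, and 1.29, SE 0.15, adjusted p = 4.51e-06) and the conjugating enzyme Ube2j1 (1.52, SE 0.16, adjusted p = 1.72e-06, and 1.39, SE 0.18, adjusted p = 1.1e-05) among the risers and Derl3 (-0.56, SE 0.16, adjusted p = 0.00708, and -1.03, SE 0.17, adjusted p = 0.000132) among the fallers. Faf2, a recruiter of the extraction ATPase, differed between the responses (-0.54, SE 0.14, adjusted p = 0.0233), but by -0.07 with its second probe.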

How the data were processed

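Each sample was hybridised alone to a mouse array and scanned in 1 colour. Per the file headers, the authors' deposited intensities are Agilent Feature Extraction 10.7.3.1 processed signals, background-subtracted, with probes designed on mm9. The deposited value table holds log2 values whose scaling and centring are not stated in the sources used here, and served as an alternative. The processed intensity was divided by each array's 75th percentile, floored at 0.04365 of it and taken to log2 (R 4.3.3). Spots flagged as outliers (4827) were set to missing, and none was saturated. A probe was kept if 3 or more arrays of any group had it well above background, probes were named by RefSeq accession, and the brightest kept probe represented a gene. limma 3.58.1 was fitted to 4 group means over all 15 arrays, with Benjamini-Hochberg adjustment at 0.05 over 14198 genes, and the pipeline was tested on simulated data. The number of arrays limits the precision. Members and lists were chosen with earlier results of these data known. The rule for full values took members past 0.05 in the difference of the responses, the 2 of each role with the largest LPS change called in both genotypes, and the 3 with the largest genotype difference; further members were chosen after their values were seen. From other lists it took up to 3 genes with the largest LPS change and up to 2 called in the difference. Same-numbered samples of both genotypes deviated together in the LPS groups (correlations of 0.13 to 0.45 in 3 of 3 pairs) but not untreated (-0.39 to -0.08). Between untreated and LPS samples of like number, correlations were mixed, at -0.005 to 0.33 in knockout and -0.53 to 0.56 in wild type cells. The replicate block therefore served as an alternative. It also ended the untreated genotype call of Asns (limma adjusted p = 0.0714) and the wild type LPS call of Sel1l (limma adjusted p = 0.0539). Alternatives changed the scaling, background, filter, floor, probe rule, samples fitted, weights and single arrays.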

Additional observations from a re-analysis of the deposited data

Results flagged for a closer look

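Of 98 gene and group sets of 4 arrays, 7 held 1 array far from the other 3, and chance flags about 1 in 20. In LPS-treated wild type replicate 2, Shmt2 was 1.27 where the others had 0.64 to 0.71, and Pdia4 was 1.79 on the same array, against 1.37 to 1.42. Sesn2 was 0.36 in untreated knockout replicate 3, against -0.53 to -0.42, and Sel1l was 3.16 there, against 3.50 to 3.54. Herpud1 was 3.09 and Manf 3.52 in untreated wild type replicate 1, against 3.73 to 3.79 and 3.81 to 3.84. Creld2 was 3.55 in untreated knockout replicate 4, against 3.71 to 3.73. Untreated knockout replicate 3 and untreated wild type replicate 1 are among the 3 arrays that deviated most over all genes.

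The LPS responses of Sesn2 and Ppp1r15b differed between the genotypes, by -0.92 and -0.74 (limma, adjusted p = 0.0482 and 0.0309). Their causes were not tested.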

How the results depend on the processing

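The gap between the enzyme and chaperone medians kept its direction in every alternative for both LPS responses, at 1.81 in wild type and 2.62 in knockout cells in the value table. Its difference between the responses was 0.10 with normexp, 0.09 in the value table and 0.70 with array weights, and between untreated genotypes -0.50 with normexp and -0.51 in the value table. Leaving out single arrays gave gaps of 2.05 to 2.23 (wild type), 2.64 to 2.92 (knockout), 0.38 to 0.67 (difference), -1.06 to -0.91 (untreated) and -0.20 to -0.04 (with LPS). It gave 24 to 27, 24 to 29, 0 to 4, 8 to 10 and 7 to 9 of the 33 genes called. Median scaling called 17 for the wild type response, 0 for the difference (limma, 2 at unadjusted p under 0.05), 3 untreated and 1 with LPS. For the difference, normexp, the value table, no filter and a lower floor called 1 each, array weights 14, omission of the 3 deviating arrays 6, and the replicate block 0 (limma, 7 at unadjusted p under 0.05). Apart from the calls named here and in the text, the block moved no count by over 1.5 times. Untreated genotypes gave 6 with normexp and 3 in the value table.

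Directions turned for Edem1 in knockout cells (quantile -0.13, median scaling -0.01, value table -0.16), Hsp90b1 in knockout cells (-0.58 quantile, -0.62 value table), in wild type cells (0.30 normexp) and between untreated genotypes (0.03 normexp, 0.11 value table), and Manf in knockout cells (-0.29 quantile, -0.35 value table) and wild type cells (-0.08 value table). They also turned for Pdia6 (quantile -0.52 in knockout, -0.47 in wild type), Sel1l in knockout (-0.27 value table) and wild type cells (-0.15 quantile, -0.02 median scaling, -0.29 value table) and Xbp1 in knockout cells (-0.17 quantile). The cause was not tested. Over all genes, the difference of the responses called 1433 genes, against 130 with median scaling, 815 with normexp, 562 of 12469 in the value table, 4503 with array weights and 2230 without the 3 arrays. Untreated genotypes called 2517, against 673, 1642, 1196 and 5198 in the first 4 of these, and genotypes with LPS called 4365, against 1174 with median scaling and 2725 in the value table. The knockout LPS response called 8510, against 5642 with median scaling. Without LPS-treated knockout replicate 3 the difference called 932 and genotypes with LPS 2872. The value table held 29 of the 33 genes.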

Other observations

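Cytosolic heat shock genes, which serve folding outside the ER, rose with LPS in 8 of 13 cases and fell in 1 in wild type cells (median 0.81), where 34.9% of all genes rose and 25.5% fell. In knockout cells 10 rose and 1 fell (median 0.90), against 32.5% and 27.5%. Hspa1a, the inducible HSP70, rose by 2.69 and 3.17, and the DnaJ proteins Dnaja1 and Dnajb1 rose by 1.94 and 1.70 in wild type and by 1.65 and 1.32 in knockout cells. Hsph1 fell, by -0.33 and -0.80. The difference of the responses passed for 0 of the 13 (limma, 1 at an unadjusted p under 0.05), against 10.1% of all genes.

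Of 20 genes of ER translocation and secretion, 8 rose and 1 fell in wild type and 8 rose and 2 fell in knockout cells (medians 0.38 and 0.34), so that the share that rose was near that of all genes (34.9% and 32.5%). Sec23b, a coat protein of vesicles leaving the ER, rose by 1.80 without and by 0.86 with the knockout, which differ by -0.94 (SE 0.19, limma adjusted p = 0.00688). Of 11 genes that process ATF6 or act beside IRE1, 6 rose and 1 fell in wild type and 5 rose and 2 fell in knockout cells, against the same shares. Traf2, an adaptor that binds IRE1, rose by 1.66 and 1.70, and Wfs1, an ER membrane protein, fell by 1.18 and 1.43. Map3k5 (ASK1), a stress kinase, rose by 1.32 in wild type cells and had -0.15 in knockout cells, a difference of -1.47 (SE 0.20). Its second probe gave 1.69 and 0.50, a difference of -1.19 (limma adjusted p = 0.0193).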
